A study of Mus musculus with 6 samples.

Results

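The genes described here code for the proteins that carry a Wnt signal from outside the cell to the nucleus: 17 Wnt ligands, 10 Frizzled receptors, 6 coreceptors (Lrp4, Lrp5, Lrp6, Ror1, Ror2 and Ryk), 4 R-spondins, 3 Lgr receptors for R-spondins, 4 TCF factors (Tcf7, Tcf7l1, Tcf7l2 and Lef1) and β-catenin (Ctnnb1). The rule lists them by symbol, and the set was proposed with earlier results of these data known. All 45 symbols matched a row of the count table, which lists 55401 genes, of which 29043 had at least 1 count.

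Wnt proteins are secreted lipid-modified ligands that bind a Frizzled receptor together with a coreceptor. In the β-catenin branch, Lrp5 or Lrp6 is the coreceptor, the complex that degrades β-catenin is held back, and β-catenin enters the nucleus and acts with TCF factors on their target genes. Other branches run through Ror1, Ror2 or Ryk without β-catenin, and R-spondins raise the sensitivity of cells to Wnt by binding Lgr receptors and sparing Frizzled and Lrp proteins from turnover. Wnt signalling is best known in bone for favouring osteoblast formation over fat cell formation from mesenchymal precursors.

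RNA-seq was carried out in C3H10T1/2, a mouse mesenchymal stem cell line, to ask how the transcriptome depends on the transcription factor NFIB and the histone methyltransferase MLL1 during osteogenic differentiation. The 3 groups compared were shControl cells carrying a control hairpin, which the labels call WT, shNFIB cells carrying a hairpin against the 3′ untranslated end of Nfib, and shMLL1 cells carrying a hairpin against the gene for MLL1, Kmt2a. Each was taken untreated at day 0, when the cells were confluent, and at day 7 in osteogenic medium with dexamethasone (0.1 µM), β-glycerophosphate (20 mM) and ascorbic acid 2-phosphate (100 µg/ml). The 6 conditions had 1 library each, and their total counts, day 0 before day 7, were 32662704 and 29086652 for shControl, 34774066 and 30406559 for shNFIB, and 30838517 and 21608680 for shMLL1.

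Each knockdown was 1 line with 1 library a day, so the effect of a hairpin and any other difference between the lines cannot be told apart. No library was taken at day 7 without osteogenic medium, so the effects of time and of the medium cannot be told apart either. The sources used here do not say whether the lines are clones or pools. Levels are CPM, the counts of a gene per 1000000 counts of its library, scaled by TMM factors, and 3 counts, taken as the floor of detection, were worth from 0.0939 CPM (shControl, day 0) to 0.123 CPM (shMLL1, day 7). A pair of libraries has no spread between cultures, so a fold change between them carries only a 95% counting interval and no p-value. A gene is called past 2-fold in a pair when its fold change exceeded 2, its counting interval left out 0 on the log2 scale and the pair held at least 10 counts.

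The 3 tests used all 6 libraries in edgeR's quasi-likelihood fit with Benjamini-Hochberg adjustment over 15741 genes: day 7 against day 0 with the 3 lines as blocks, and each knockdown against shControl over both days. With 2 residual degrees of freedom, the day comparison called many genes and the knockdown comparisons few. It called 17.2% of all genes tested higher and 17.3% lower at day 7. It called 0.0762% higher and 0.178% lower in shNFIB, and 0.0127% higher and 0.0191% lower in shMLL1.

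The hairpin targets followed the labels. Nfib had 116 CPM at day 0 and 83.5 CPM at day 7 in shControl, 35.3 and 8.15 CPM in shNFIB, and 65.5 and 72.7 CPM in shMLL1 cells. Its level in shNFIB was 3.29-fold lower than in shControl at day 0 and 10.2-fold lower at day 7, and shMLL1 cells at day 0 were also lower, by 1.78-fold. Kmt2a had 74.7 and 66.3 CPM in shControl, 86.5 and 94.0 CPM in shNFIB, and 30.9 and 34.8 CPM in shMLL1 cells. It was 2.42-fold lower in shMLL1 at day 0 and 1.90-fold lower at day 7. Over both days neither target passed the test (log2 difference of Nfib −2.39, SE 0.52, adjusted p = 0.158, and of Kmt2a −1.10, SE 0.22, adjusted p = 0.168).

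All 9 mesenchymal markers were at 1 CPM or more in at least 1 library, led by Col1a2, with summed levels of 13257, 20252 and 8684 CPM in shControl, shNFIB and shMLL1 at day 0 and of 8389, 8677 and 8220 CPM at day 7. Of 9 osteoblast markers, 5 reached 1 CPM, led by Spp1, and Ibsp had no count. Their sum was 263 CPM at day 0 and 1558 CPM at day 7 in shControl, against 253 and 268 CPM in shNFIB and 262 and 358 CPM in shMLL1 cells. Adipocyte markers, led by Pparg and with Adipoq at the floor, summed to 51.0 and 200.1 CPM in shControl, 63.5 and 94.1 CPM in shNFIB, and 18.2 and 32.0 CPM in shMLL1 cells. Pparg led by mean level and rose by 0.70 on the log2 scale in the day comparison, against 12.5 for Cfd. In shNFIB over both days Pparg differed by 0.97 and Cebpa by −1.36, neither called, and Cfd by −6.49, called lower.

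Markers of chondrocytes, led by Sox9 and with Acan at the floor, summed to 409.9 and 130.1 CPM in shControl, 269.9 and 90.6 CPM in shNFIB, and 81.0 and 98.6 CPM in shMLL1 cells. Sox9 led by mean level and was not called in the day comparison (log2 difference −0.05), which called Col2a1 lower (−4.49). All 4 myogenic markers were at the floor, and none of 4 endothelial markers reached 1 CPM. Leukocyte markers summed to between 1.52 and 8.20 CPM, nearly all Cd68, with Ptprc and Adgre1 at the floor. Epithelial markers, nearly all Cdh1 with Epcam and Krt18 at the floor, summed to 9.05 and 1.15 CPM in shControl. The 6 proliferation markers, led by Top2a, summed to 1519, 2151 and 1550 CPM in shControl, shNFIB and shMLL1 at day 0 and to 309, 262 and 213 CPM at day 7, and 6 of 6 fell in the day comparison. In bulk RNA, fewer cells of a type and less RNA per cell cannot be told apart, and the part of these shifts in the results below was not tested.

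Of the 45 genes, 27 reached 1 CPM in at least 1 library and 20 did so in all 6. The 27 were 5 Wnt ligands, 8 Frizzled receptors, all 6 coreceptors, Rspo2, Rspo3, Lgr4, all 4 TCF factors and Ctnnb1. Another 13 had counts but stayed under 1 CPM everywhere (Wnt1, Wnt2, Wnt4, Wnt6, Wnt7a, Wnt7b, Wnt10a, Wnt11, Wnt16, Fzd6, Rspo1, Lgr5 and Lgr6). The other 5, Wnt3, Wnt3a, Wnt9b, Fzd10 and Rspo4, had 0 counts in all 6 libraries. The filter on low counts kept 28 members for the tests, the 27 and Lgr6.

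**Figure D1:**
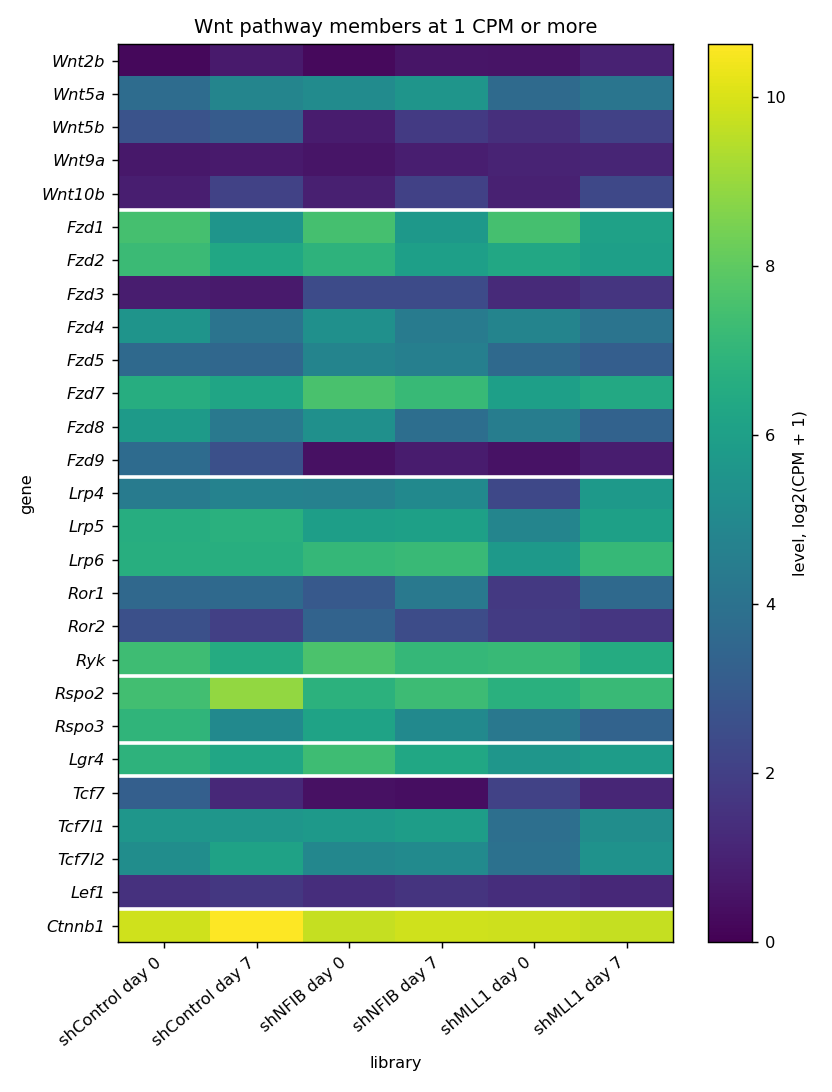
Levels of the 27 members at 1 CPM or more in at least 1 of 6 libraries, as log2(CPM + 1) on the colour scale, with genes in rows, libraries in columns and white lines between families. Ctnnb1 is the brightest row, Wnt5a is the brightest Wnt ligand in every library, and Fzd9 and Tcf7 are darker in each shNFIB library than in the shControl library of the same day.

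Per kilobase of all annotated exons joined, which allows levels of different genes to be compared, Ctnnb1 had a mean of 193 CPM per kb over the 6 libraries, followed by Rspo2 with 38.3, Ryk with 30.3, Fzd1 with 27.9, Fzd2 with 25.4 and Fzd7 with 24.2 CPM per kb. The place of Rspo2 rests on shControl at day 7, with 95.1 CPM per kb, since its other 5 libraries lay between 20.9 and 33.4, and Ryk was above it in every day 0 library. The most abundant ligand, Wnt5a, had 3.18 CPM per kb and Wnt5b 1.33 CPM per kb. The receptors Ryk, Fzd1, Fzd2 and Fzd7 were each above every ligand in all 6 libraries. Lrp6 and Lrp5 had means of 8.22 and 7.24 CPM per kb, but Lrp5 was the higher of the pair in both shControl libraries (10.1 and 11.0 CPM per kb, against 7.44 and 7.39 for Lrp6) and the lower in all 4 knockdown libraries. Among the TCF factors Tcf7l1 had a mean of 10.8 CPM per kb and Tcf7l2 4.26. With the longest transcript as the length, Tcf7l2 had a mean of 10.1 against 14.0 for Tcf7l1, and stood above it in shControl at day 7 (18.6 against 15.4). Tcf7 had a mean of 0.943 and Lef1 of 0.205 CPM per kb. Tcf7 had its peak of 3.18 in shControl at day 0 and was below Lef1 in both shNFIB libraries (0.145 against 0.184 at day 0 and 0.116 against 0.235 at day 7), and with the longest transcript also in shControl at day 7 (0.544 against 0.628).

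The sequences before 3 members are shown, since these carry the main patterns of the data: Fzd9, which was the member with the lowest ratio to shControl among those with counts in both knockdown lines at day 0, Rspo1, whose counts were nearly confined to shControl, and Wnt10b, which was higher at day 7 to a like extent in every line. The bases that precede their start sites are given here from RefSeq on GRCm38.p6, 5′ to 3′ on the strand of the gene, with CpG dinucleotides in capitals. The Fzd9 stretch lies at chr5:135251231-135251297 on the minus strand and is shorter because the annotated exon begins within the window. The Rspo1 stretch lies at chr4:124986180-124986429 on the plus strand and the Wnt10b stretch at chr15:98778151-98778400 on the minus strand.
Fzd9: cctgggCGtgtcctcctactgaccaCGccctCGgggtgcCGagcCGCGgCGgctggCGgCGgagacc
Rspo1: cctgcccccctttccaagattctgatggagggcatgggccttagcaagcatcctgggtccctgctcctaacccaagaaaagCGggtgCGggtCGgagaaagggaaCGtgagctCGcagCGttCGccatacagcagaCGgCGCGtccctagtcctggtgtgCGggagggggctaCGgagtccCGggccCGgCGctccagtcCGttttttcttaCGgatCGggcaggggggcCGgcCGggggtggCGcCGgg
Wnt10b: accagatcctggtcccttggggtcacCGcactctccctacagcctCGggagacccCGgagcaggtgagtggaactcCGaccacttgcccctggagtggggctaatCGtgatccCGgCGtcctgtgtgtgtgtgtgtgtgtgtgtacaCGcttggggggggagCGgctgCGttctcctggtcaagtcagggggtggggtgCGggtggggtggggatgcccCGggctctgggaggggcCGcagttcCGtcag

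The 250 bases before Rspo1 and before Wnt10b hold 22 and 14 CpG with 66.8% GC each. Over the 32851 windows of 250 bases, from 27025 genes, in the RefSeq promoter table, the medians are 6 CpG and 52.4% GC. The 67 bases before Fzd9 hold 9 CpG with a GC content of 77.6%, a count over fewer bases than the median. Its full window of 250 bases, which reaches into the exon, holds 42 CpG with 76.4% GC. NFI factors bind the palindrome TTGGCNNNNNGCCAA and, more weakly, its half-site TTGGC. Of the 45 members, 32 had an entry, with 41 windows of 250 bases before a start and medians of 23 CpG and 69.6% GC. The half-site, read on both strands, occurred in 14 of the 41, and in 41.5% of the 32851 windows of the table. None of the 3 stretches printed holds it. The palindrome, which contains the half-site, occurred in 0 of the 41 and in 0.0365% of the table's windows. The TCF core CTTTGA occurred in 5 of the 41 and in 13.8% of all. These are matches of letters in a short window and were not set against binding data.

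Over all 3 lines, 9 of the 28 members tested changed between day 0 and day 7, 2 higher and 7 lower. These counts stand beside 17.2% of all genes higher and 17.3% lower, and differ from those shares by only a few genes. The median log2 change was 0.22 over the 28 members and −0.02 over all genes tested. Wnt10b and Tcf7l2 rose, and Fzd1, Fzd2, Fzd4, Fzd8, Ryk, Rspo3 and Tcf7 fell. In the Frizzled family 4 of the 8 tested fell and none rose. Wnt10b, Fzd1 and Fzd8 kept their call with any of the 3 lines left out, and Fzd2, Fzd4, Ryk, Rspo3, Tcf7 and Tcf7l2 lost it without shControl.

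The Wnt ligands were few and dominated by Wnt5a, a ligand best known for signalling through Ror2 without β-catenin. Their summed level was 20.7 and 41.2 CPM at day 0 and day 7 in shControl, 37.5 and 54.9 CPM in shNFIB, and 16.4 and 26.2 CPM in shMLL1 cells. Wnt5a supplied between 61.0% (95% Wilson interval 57.2 to 64.6) of these counts in shControl at day 0 and 91.7% (90.0 to 93.2) in shNFIB at day 0. Per kilobase, Wnt5b was the higher ligand in shControl at day 0, with 2.10 CPM per kb against 1.61 for Wnt5a, and Wnt5a was the higher in the other 5 libraries.

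Wnt5a (ENSMUSG00000021994, chromosome 14: 28504750 to 28527448, GRCm38) had 12.6 and 27.7 CPM at day 0 and day 7 in shControl, 34.4 and 46.3 CPM in shNFIB, and 11.7 and 16.4 CPM in shMLL1 cells. Both shNFIB libraries stood above the other 4, and day 7 was above day 0 in each line. The day 7 level was 2.19-fold that of day 0 in shControl, 1.35-fold in shNFIB and 1.41-fold in shMLL1. The day comparison gave a log2 difference of 0.68 (SE 0.22), which missed the threshold (adjusted p = 0.0517) and was called in 4 of 7 refits, among them DESeq2 and the fit without shMLL1. Part of a Wnt5a exon overlaps Gm2670 on the other strand, and whether counting used strand is not given in the sources used here.

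Wnt5b, a close relative of Wnt5a, was lower in both knockdown lines than in shControl at each day. It had 5.57 and 7.38 CPM in shControl, 0.760 and 2.54 CPM in shNFIB, and 1.72 and 3.16 CPM in shMLL1 cells. All 4 knockdown libraries were below both shControl libraries, by 7.30-fold in shNFIB and 3.23-fold in shMLL1 at day 0 and by 2.91-fold and 2.34-fold at day 7. At day 0, shNFIB cells thus had more Wnt5a and less Wnt5b than shControl cells. The fits over both days gave log2 differences of −2.16 (SE 0.47, adjusted p = 0.158) in shNFIB and −1.48 (SE 0.45, adjusted p = 0.376) in shMLL1.

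Wnt10b, a β-catenin ligand known to favour bone over fat, gave the most even day response of the ligands. Its counts were 28 and 101 in shControl, 28 and 93 in shNFIB, and 30 and 96 in shMLL1 cells, or 0.877 and 3.31, 0.887 and 3.15, and 0.994 and 3.93 CPM. The 3 libraries of each day were close to each other, and the days did not overlap. It rose by 1.91 on the log2 scale (SE 0.35, adjusted p = 0.00880), with 3.77-fold, 3.54-fold and 3.94-fold in the 3 lines. Between each knockdown line and shControl, the counting interval of its log2 difference included 0 at both days, the widest running from −0.79 to 0.83.

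Wnt2b was higher at day 7 in each line on low counts, from 0.188 to 0.722 CPM in shControl, 0.190 to 0.507 CPM in shNFIB and 0.464 to 1.02 CPM in shMLL1, and missed the threshold (log2 difference 1.46, SE 0.49, adjusted p = 0.0585). Wnt9a lay between 0.538 and 1.15 CPM in the 6 libraries, with day intervals that included 0 in each line. Wnt4 had 4 and 18 counts in shControl, 8 and 24 in shNFIB, and 0 and 1 in shMLL1 cells. At day 7 its log2 difference between shMLL1 and shControl was −3.71 with a counting interval of −9.23 to −1.19. The shMLL1 count was under the floor of 3, so this value gives a direction and no exact size. Wnt11 had 8 and 23 counts in shControl, 2 and 13 in shNFIB, and 7 and 6 in shMLL1, so that at day 7 shMLL1 was lower than shControl by 1.60 on the log2 scale (interval −3.20 to −0.28). The other ligands with counts had at most 6 in any library.

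**Figure D2:**
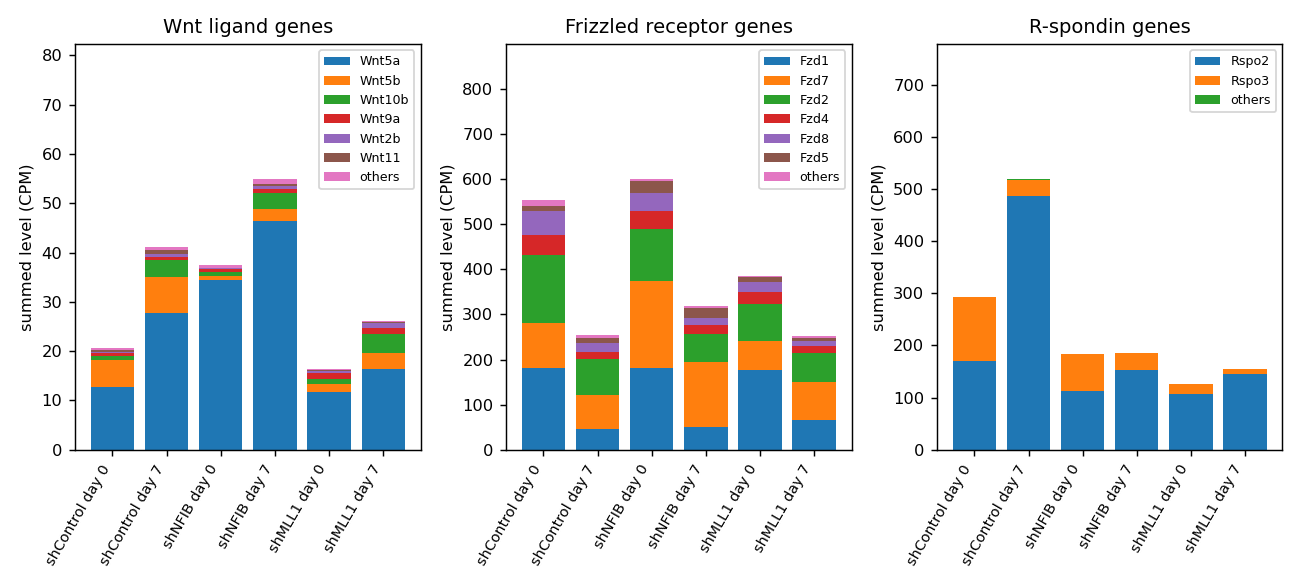
Summed levels (CPM, linear axis from 0) of the Wnt ligand, Frizzled receptor and R-spondin genes in each of the 6 libraries, with coloured segments for the most abundant members of each family. Wnt5a fills most of every ligand bar, the Frizzled bars are shorter at day 7 than at day 0 in all 3 lines, and the R-spondin bar of shControl at day 7 (519 CPM, nearly all Rspo2) stands above the other 5.

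Frizzled transcripts were lower at day 7 in each line, with sums of 554 and 253 CPM in shControl, 599.9 and 319 CPM in shNFIB, and 386 and 251 CPM in shMLL1 cells. Fzd1 led the fall. It had 182 and 46.1 CPM in shControl, 182 and 49.5 CPM in shNFIB, and 177 and 66.4 CPM in shMLL1 cells. All day 7 libraries lay far below all day 0 libraries, with a log2 change of −1.76 (SE 0.20, adjusted p = 0.00202).

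Fzd8 had 53.9 and 18.9 CPM in shControl, 39.1 and 13.5 CPM in shNFIB, and 21.8 and 9.06 CPM in shMLL1 cells. It fell by 1.44 on the log2 scale (SE 0.19, adjusted p = 0.00308), and shMLL1 was below shControl past 2-fold at both days, with log2 differences of −1.30 (interval −1.43 to −1.17) and −1.06 (−1.29 to −0.83). Fzd4 had 44.0 and 15.8 CPM, 39.1 and 20.4 CPM, and 26.7 and 16.0 CPM in the same order of lines, a fall of 1.05 on the log2 scale (SE 0.22, adjusted p = 0.0134). Fzd4 is also the receptor of the non-Wnt ligand Norrin.

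Fzd2 had 151 and 80.7 CPM in shControl, 116 and 63.7 CPM in shNFIB, and 82.8 and 64.0 CPM in shMLL1 cells. It fell by 0.71 on the log2 scale (SE 0.19, adjusted p = 0.0308), and the fall was smallest in shMLL1, where day 0 was already low. Fzd7 did not share it. With 98.4 and 75.1 CPM in shControl, 193 and 144 CPM in shNFIB, and 63.8 and 84.6 CPM in shMLL1 cells, it was lower at day 7 in 2 lines and higher in shMLL1, and both shNFIB libraries were above the other 4.

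Fzd9 showed the widest gap between lines at the same day of all members with counts in every library. It had 12.0 and 5.02 CPM in shControl, 0.412 and 0.778 CPM in shNFIB, and 0.431 and 0.820 CPM in shMLL1 cells, from 383 and 153, 13 and 23, and 13 and 20 counts. The shControl libraries did not overlap the knockdown libraries. At day 0 Fzd9 was 28.9-fold lower in shNFIB and 27.6-fold lower in shMLL1, and at day 7 it was 6.42-fold and 6.10-fold lower. The intervals of the log2 differences ran from −5.79 to −4.07 and from −5.72 to −4.01 at day 0. Fzd9 has been linked to osteoblast function and mineralization in mice.

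Over both days Fzd9 differed by −3.85 on the log2 scale in shNFIB (SE 0.69, unadjusted p = 0.000872, adjusted p = 0.107) and by −3.78 in shMLL1 (SE 0.69, adjusted p = 0.139), neither past the threshold. Since both comparisons use the same shControl libraries, they are not independent of each other. In shControl alone it was 2.39-fold lower at day 7, whereas in the knockdown lines its day intervals included 0.

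Fzd3 and Fzd5 were higher in shNFIB. Fzd3, a receptor of planar cell polarity, had 0.783 and 0.722 CPM in shControl, 4.37 and 4.36 CPM in shNFIB, and 1.42 and 2.13 CPM in shMLL1 cells. It was thus level across days in shControl and shNFIB, 5.56-fold and 6.02-fold higher in shNFIB than in shControl, and 1.82-fold and 2.94-fold higher in shMLL1. Over both days the log2 difference was 2.53 in shNFIB (SE 0.45, adjusted p = 0.109). Fzd5 had 11.6 and 10.9 CPM in shControl, 26.5 and 23.1 CPM in shNFIB, and 11.5 and 8.11 CPM in shMLL1 cells, so both shNFIB libraries were more than 2-fold above shControl (log2 difference over both days 1.14, SE 0.26, adjusted p = 0.168). Fzd6 had at most 6 counts.

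Among the 6 coreceptors, 3 (Lrp4, Lrp5 and Ror1) were past 2-fold below shControl in the shMLL1 library of day 0. None was past 2-fold above it there, and 8.09% of all genes were past 2-fold below. In shNFIB none was past 2-fold from shControl on either day, and the tests over both days called none in either knockdown line. Summed coreceptor levels were 398 and 342 CPM in shControl, 434 and 402 CPM in shNFIB, and 231 and 362 CPM in shMLL1 cells. Lrp5 and Lrp6 are the coreceptors of the β-catenin branch, and Lrp5 is known for its strong effect on bone mass. Lrp5 had 98.4 and 108 CPM in shControl, 60.5 and 64.3 CPM in shNFIB, and 27.8 and 64.5 CPM in shMLL1 cells. Lrp6 had 102 and 101 CPM in shControl, 135 and 146 CPM in shNFIB, and 52.6 and 139 CPM in shMLL1 cells. Both were near level across days in shControl and shNFIB and past 2-fold higher at day 7 in shMLL1, by 1.22 (interval 1.09 to 1.34) and 1.40 (1.31 to 1.49) on the log2 scale.

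Lrp4, which binds sclerostin and agrin and restrains the β-catenin branch in bone, had the largest day difference in shMLL1 cells among the members with 10 or more counts at each day. It had 20.3 and 25.2 CPM in shControl, 24.8 and 32.5 CPM in shNFIB, and 4.01 and 52.3 CPM in shMLL1 cells. The shMLL1 line therefore held both the lowest and the highest of the 6 values. Its day difference was 3.70 on the log2 scale (interval 3.44 to 3.99) in shMLL1, against 0.31 (0.16 to 0.46) in shControl and 0.39 (0.25 to 0.53) in shNFIB. With a single library of each, the contrast between lines was not tested.

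Ror1 had 11.1 and 11.5 CPM in shControl, 6.78 and 18.9 CPM in shNFIB, and 2.39 and 11.5 CPM in shMLL1 cells. Both knockdown lines were lower than shControl at day 0 and past 2-fold higher at day 7 than at day 0, and the day comparison over lines missed the threshold (log2 difference 1.26, SE 0.43, adjusted p = 0.0611), with a call in 4 of 7 refits. Ror2, a receptor of Wnt5a, was less abundant, with 5.07 and 3.08 CPM, 9.60 and 4.60 CPM, and 2.62 and 2.17 CPM. Ryk fell in all 3 lines, from 161 to 93.5 CPM in shControl, 198 to 136 CPM in shNFIB and 141 to 92.7 CPM in shMLL1 (log2 change −0.65, SE 0.18, adjusted p = 0.0346).

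R-spondin transcripts differed in make-up between days. Rspo2 had 171 and 486 CPM in shControl, 112 and 154 CPM in shNFIB, and 107 and 146 CPM in shMLL1 cells. The shControl library of day 7 stood above the other 5, at 2.85-fold its day 0 level, while shNFIB and shMLL1 were 1.37-fold and 1.36-fold higher at day 7. The fit over lines gave a log2 difference of 0.80 (SE 0.27, adjusted p = 0.0582), with a call in 4 of 7 refits. Relative to shControl, Rspo2 was 1.53-fold and 1.59-fold lower in shNFIB and shMLL1 at day 0, and 3.17-fold and 3.34-fold lower at day 7. Over both days these differences missed the threshold (log2 −1.17, SE 0.33, adjusted p = 0.248, and −1.24, SE 0.33, adjusted p = 0.297).

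Rspo3 moved the other way with time. It had 122 and 31.7 CPM in shControl, 71.5 and 31.6 CPM in shNFIB, and 18.1 and 9.51 CPM in shMLL1 cells. It fell by 1.36 on the log2 scale (SE 0.24, adjusted p = 0.00850), and both shMLL1 libraries were the lowest of their day. In shMLL1 it was 6.73-fold lower than in shControl at day 0 and 3.34-fold lower at day 7, with a log2 difference over both days of −2.27 (SE 0.31, unadjusted p = 0.000169, adjusted p = 0.105). In shNFIB it was 1.71-fold lower at day 0, and at day 7 its log2 difference was −0.01 (interval −0.14 to 0.13).

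Rspo2 therefore took a larger share of R-spondin counts at day 7, which went from 58.2% to 93.8% in the shControl line, 61.0% to 82.9% in the shNFIB line, and 85.5% to 93.9% in the shMLL1 line. Per kilobase of joined exons, Rspo3 had the larger share at day 0 in shControl (54.0%) and shNFIB (51.4%). Rspo2 had it in shMLL1 at day 0 and in every line at day 7. Summed R-spondin levels were 293 and 519 CPM, 183 and 185 CPM, and 125 and 155 CPM in the 3 lines. Rspo1 was scarce, with 19 and 18 counts in shControl, 0 and 2 in shNFIB, and 0 and 1 in shMLL1 cells. Against the floor of 3 counts per library, it was at least 6.26-fold lower in shNFIB and at least 5.98-fold lower in shMLL1 at day 0. At day 7 the log2 differences were −3.05 (interval −6.28 to −1.06) and −3.71 (−9.23 to −1.19). The knockdown counts were under the floor there too, so these values give a direction and no exact size.

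Of the R-spondin receptors, Lgr4 was the abundant member, with 116 and 78.1 CPM in shControl, 158 and 80.3 CPM in shNFIB, and 46.4 and 57.3 CPM in shMLL1 cells. It was lower at day 7 in shControl and shNFIB and slightly higher in shMLL1, where day 0 was 1.32 below shControl on the log2 scale (interval −1.41 to −1.23). The counts of Lgr6 were 0 and then 14 in shControl, 16 and 25 in shNFIB cells, and 19 and 6 in shMLL1 cells. At day 0 it was thus at least 5.40-fold higher in shNFIB and at least 6.70-fold higher in shMLL1 than the floor in shControl. Lgr5 had at most 2 counts in a library.

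**Figure D3:**
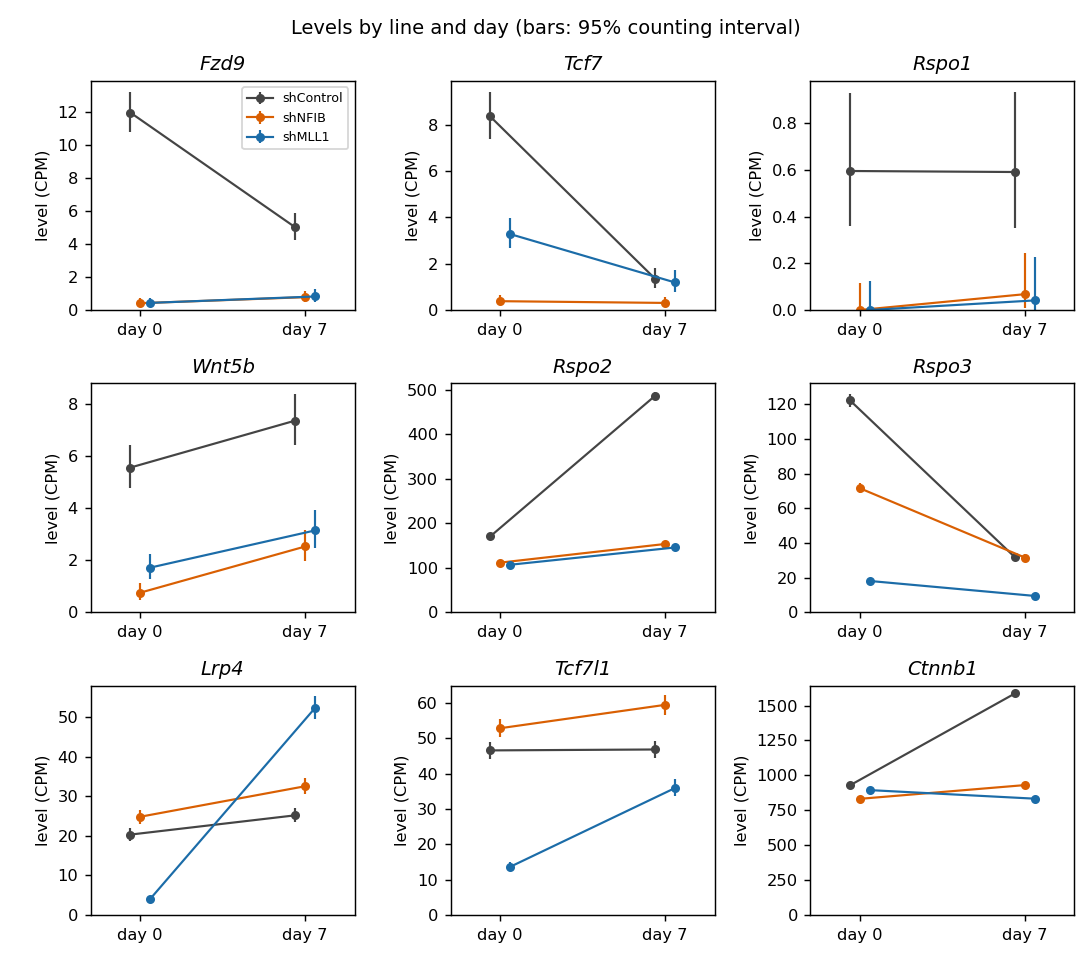
Levels (CPM, linear axes from 0) of 9 members at day 0 and day 7 in shControl, shNFIB and shMLL1 cells, 1 library a point, with bars for the 95% Poisson counting interval. Fzd9 and Rspo1 are near 0 in both knockdown lines at both days, Rspo2 and Ctnnb1 are highest in shControl at day 7, and Lrp4 and Tcf7l1 start lowest in shMLL1 at day 0.

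Of the 4 TCF factors, none was called in either knockdown test over both days. Of all genes, 0.0762% were called higher and 0.178% lower in shNFIB, and 0.0127% and 0.0191% in shMLL1. Tcf7 (TCF-1), itself a known target of β-catenin, had 8.36 and 1.34 CPM in shControl, 0.380 and 0.304 CPM in shNFIB, and 3.28 and 1.19 CPM in shMLL1 cells, from 267 and 41, 12 and 9, and 99 and 29 counts. It was highest in shControl at day 0, and both shNFIB libraries were the lowest of the 6. The day comparison called it lower (log2 change −1.63, SE 0.51, adjusted p = 0.0474), with 6.20-fold in shControl and 2.75-fold in shMLL1, while the counting interval of shNFIB, −1.75 to 1.05 on the log2 scale, included 0. At day 0 it was 21.8-fold lower in shNFIB and 2.55-fold lower in shMLL1 than in shControl. Over both days the shNFIB difference was −3.40 on the log2 scale (SE 0.67, adjusted p = 0.133).

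Tcf7l2 (TCF-4) had 35.7 and 68.9 CPM in shControl, 29.3 and 33.1 CPM in shNFIB, and 14.8 and 42.2 CPM in shMLL1 cells. It rose by 0.88 on the log2 scale (SE 0.28, adjusted p = 0.0479), with values of 0.95, 0.18 and 1.51 in the 3 lines. The shNFIB difference between days was thus the smallest, and at day 7 shNFIB was 1.06 below shControl (interval −1.17 to −0.95). Tcf7l1 (TCF-3), mostly a repressor, had 46.6 and 46.8 CPM in shControl, 52.8 and 59.4 CPM in shNFIB, and 13.6 and 35.9 CPM in shMLL1 cells. It was level in shControl and low in shMLL1 at day 0, by 1.78 on the log2 scale (interval −1.94 to −1.62). Lef1 lay between 1.35 and 2.30 CPM in all 6 libraries.

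Ctnnb1 (ENSMUSG00000006932, chromosome 9: 120929216 to 120960507, GRCm38) had 929 and 1587 CPM in shControl, 832 and 930 CPM in shNFIB, and 894 and 833 CPM in shMLL1 cells. The 3 day 0 libraries were close to each other, and shControl at day 7 stood apart from the other 5. The log2 difference between days was 0.77 (interval 0.75 to 0.79) in shControl, 0.16 (0.14 to 0.19) for shNFIB cells and −0.10 (−0.13 to −0.08) for shMLL1 cells, and the day comparison over lines did not call it (log2 difference 0.28, SE 0.27, adjusted p = 0.459). These intervals cover counting error only, and β-catenin is regulated mostly at the level of the protein, which was not measured in these libraries.

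**Figure D4:**
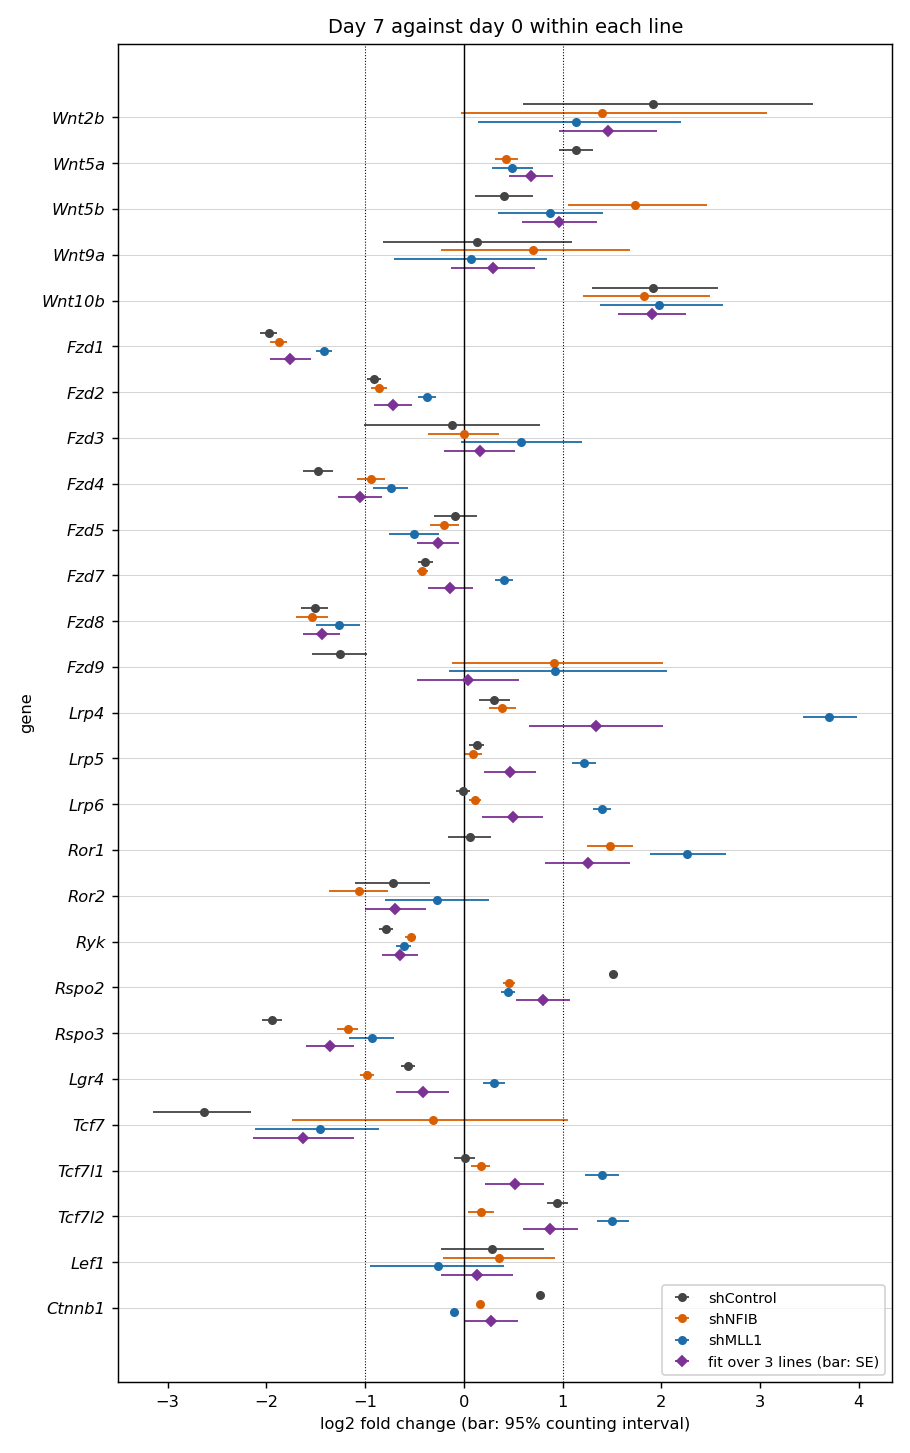
Log2 fold change of day 7 against day 0 for 27 members in shControl, shNFIB and shMLL1 cells (circles, with bars for the 95% counting interval) and in the fit over 3 lines (diamonds, with bars for the SE), with dotted lines at 2-fold. Fzd1, Fzd8 and Rspo3 lie left of 0 and Wnt10b right of 0 in every line, while the shMLL1 points of Lrp4, Lrp5, Lrp6 and Tcf7l1 lie far to the right of those of the other lines.

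Within each line, the number of members past 2-fold between days was set beside that of all genes. In shControl, 7 of 31 members with enough counts were higher and 6 lower, against 21.0% and 13.7% of all genes. In shNFIB, 5 of 30 were higher and 4 lower, against 14.6% and 12.6%. In shMLL1, 8 of 29 were higher and 3 lower, against 23.8% and 18.1%. The members were past 2-fold about as often as other genes, and the median log2 difference was 0.01, 0.17 and 0.30 over the members against 0.02, −0.02 and 0.06 over all genes. Of the 6 coreceptors, 4 were past 2-fold higher at day 7 in shMLL1, 1 was higher and 1 lower in shNFIB, and none was past 2-fold in shControl.

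Between lines, the members were set beside all genes in the same way at each day. In shNFIB at day 0, 4 of 32 members were past 2-fold higher than shControl (Wnt5a, Fzd3, Fzd5 and Lgr6) and 4 lower (Wnt5b, Fzd9, Rspo1 and Tcf7), against 5.97% and 5.26% of all genes. In shNFIB at day 7, 2 of 31 were higher (Fzd3 and Fzd5) and 6 lower (Wnt5b, Fzd9, Rspo1, Rspo2, Tcf7 and Tcf7l2), against 6.95% and 11.2%. The median log2 difference was −0.17 and 0.04 over the members and 0.08 and −0.01 over all genes.

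In shMLL1 at day 0, 1 of 30 members, Lgr6, was past 2-fold higher and 12 were lower, against 9.54% and 8.09% of all genes. The 12 were Wnt5b, Fzd8, Fzd9, Lrp4, Lrp5, Ror1, Rspo1, Rspo3, Lgr4, Tcf7, Tcf7l1 and Tcf7l2. In shMLL1 at day 7, 2 of 31 were higher (Fzd3 and Lrp4) and 8 lower (Wnt4, Wnt5b, Wnt11, Fzd8, Fzd9, Rspo1, Rspo2 and Rspo3), against 7.37% and 5.49%. The median log2 difference was −0.79 at day 0 and −0.45 at day 7 over the members, and −0.03 and −0.02 over all genes. All 4 comparisons draw on the same shControl library of their day. Most of these members did not pass an exact test at an assumed biological variation of 0.4, as described under the dependence on processing. The share of all genes that passed it is not given here, so that test does not compare the members with other genes.

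In the tests over both days no member passed, with 0 of 28 called in shNFIB (against 0.0762% of all genes higher and 0.178% lower) and 0 of 28 in shMLL1 (against 0.0127% and 0.0191%). At an unadjusted p under 0.05, edgeR's quasi-likelihood test had 8 of the 28 in shNFIB and 11 in shMLL1, where all genes gave 1956 and 1442 of 15741. DESeq2 on the same genes called 6 members in shNFIB (Fzd3 and Fzd5 higher, Wnt5b, Fzd9, Rspo2 and Tcf7 lower), beside 1.75% of all genes higher and 1.91% lower. It called 4 in shMLL1 (Fzd8, Fzd9, Lrp5 and Rspo3, all lower), beside 1.16% higher and 1.48% lower of the 14825 genes to which it gave an adjusted p. The median log2 difference of the 28 members was 0.01 in shNFIB and −0.49 in shMLL1, against 0.05 and −0.02 over all genes tested.

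**Figure D5:**
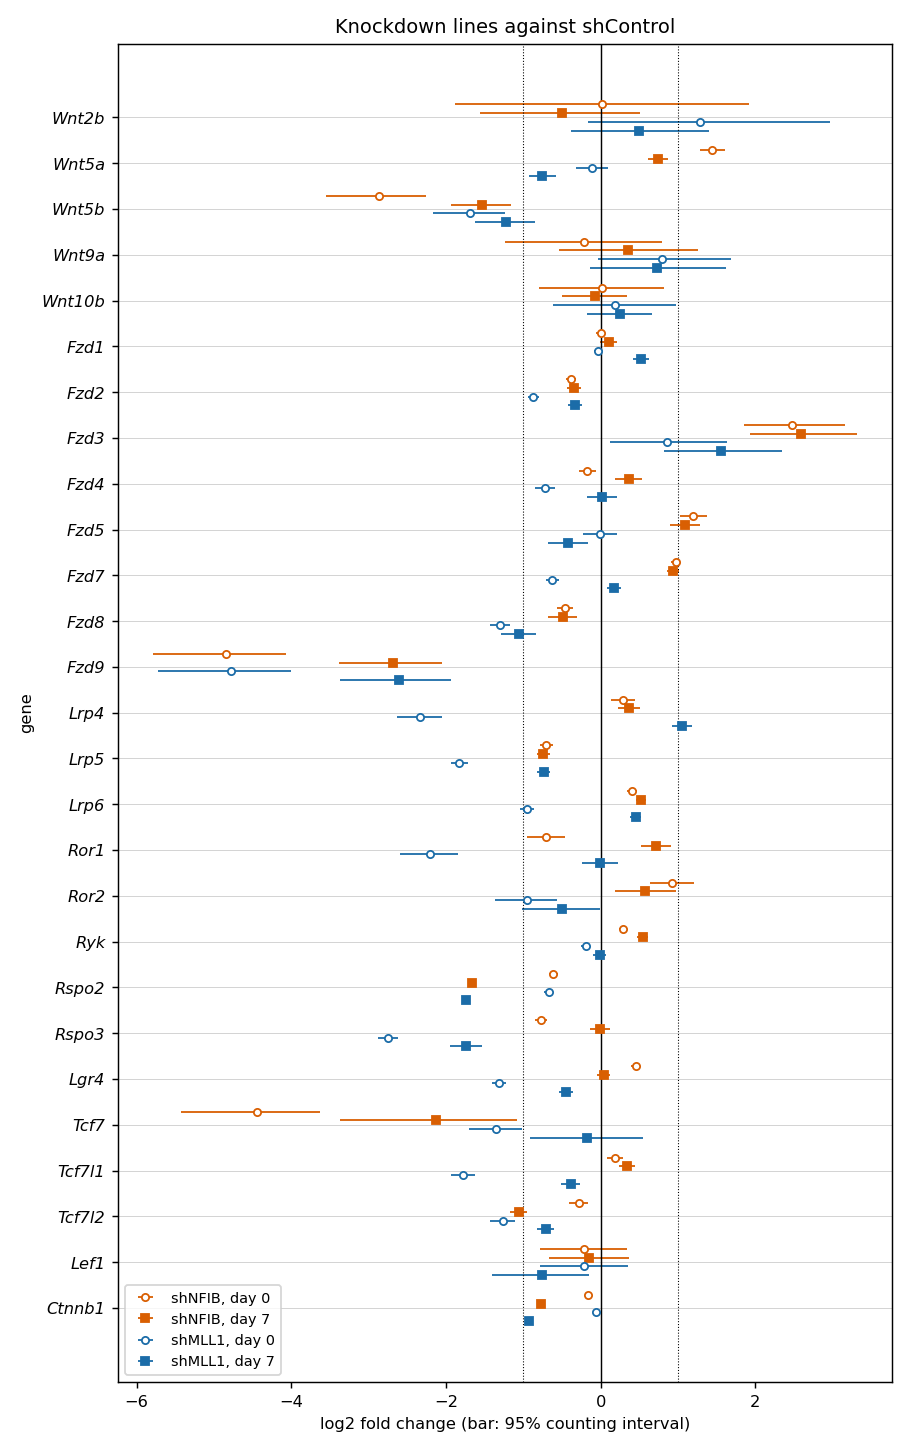
Log2 fold change of shNFIB and shMLL1 against shControl at day 0 (open circles) and day 7 (filled squares) for 27 members, 1 library a side, with bars for the 95% counting interval and dotted lines at 2-fold. Fzd9 lies farthest left in all 4 comparisons, Fzd3 lies right of 0 in all 4, and the shMLL1 points of Lrp4, Ror1 and Tcf7l1 lie far left at day 0.

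The genes around these members were counted in the same day comparison, in which 17.2% of all genes were higher and 17.3% lower. Of the 2 genes that make and release Wnt ligands, 1 was higher and none lower. Porcn, the enzyme that attaches the lipid to Wnt proteins, had 6.57 and 35.0 CPM in shControl, 6.02 and 24.1 CPM in shNFIB, and 8.95 and 34.0 CPM in shMLL1 cells, and rose by 2.11 on the log2 scale (SE 0.22, adjusted p = 0.00135). All day 7 libraries were above all day 0 libraries. Wls, which carries Wnt to the surface, lay between 405 and 594 CPM and was not called.

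Of 22 secreted and membrane inhibitors, 11 could be tested, and 1 was higher and none lower at day 7, against 17.2% and 17.3% of all genes, with a median log2 difference of −0.45. The 1 was Sfrp5, a secreted Frizzled-related decoy with 0 and 0.492 CPM in shControl, 0.0633 and 0.338 CPM in shNFIB, and 0 and 0.861 CPM in shMLL1 cells (log2 change 4.41, SE 1.04, adjusted p = 0.0195). Sfrp2, of the same family and named here after its values were seen, had 21.4 and 4.36 CPM in shControl, 0.0633 and 0 CPM in shNFIB, and 0.497 and 1.19 CPM in shMLL1 cells, from 682 and 133, 2 and 0, and 15 and 29 counts. Its knockdown libraries were all below both shControl libraries, as were those of Fzd9. Frzb was also lower in the knockdown lines, with 103 and 30 counts in shControl, 6 and 18 in shNFIB, and 7 and 7 in shMLL1 cells. Sostdc1 had 18 and 2 counts in shControl and 0 in every knockdown library. Dkk2 went the other way on low counts, with 0 and 1 in shControl, 12 and 2 in shNFIB, and 16 and 9 in shMLL1 cells. Apcdd1 was higher in shMLL1 alone, with 47 and 25 counts in shControl, 54 and 25 in shNFIB, and 220 and 126 in shMLL1 cells.

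In the cytoplasmic list, 20 of 22 genes were tested, with 1 higher and 3 lower at day 7, against 17.2% and 17.3% of all genes, and a median of −0.25. Csnk1e rose by 0.77 (SE 0.18, adjusted p = 0.0195). Gsk3b, the kinase that marks β-catenin for destruction, fell by 0.88 (SE 0.22, adjusted p = 0.0228), its partner scaffold Axin1 fell by 0.58 (SE 0.17, adjusted p = 0.0400), and Fbxw11, a subunit of the ubiquitin ligase for β-catenin, fell by 0.78 (SE 0.19, adjusted p = 0.0219). Of 12 nuclear cofactors and repressors, 11 were tested, with 3 higher (Tle2 by 2.14, Pygo1 by 1.06 and Bcl9 by 0.94) and 1 lower (Tle5 by −0.76), again against 17.2% and 17.3%, and a median of 0.12.

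Tle2, a corepressor that binds TCF factors, had 48.8 and 273 CPM in shControl, 42.7 and 67.6 CPM in shNFIB, and 19.5 and 179 CPM in shMLL1 cells. Of the 18 genes of planar cell polarity and other noncanonical branches, 15 were tested, with 3 higher (Daam2 by 1.90, Fuz by 1.52 and Camk2d by 1.16) and 3 lower (Camk2a by −2.79, Rhoa by −0.94 and Rac1 by −0.73), against the same 17.2% and 17.3%, and a median of −0.24. In the knockdown tests none of these lists had a called gene.

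Of 20 genes widely used as β-catenin targets, 14 were tested, none was higher and 5 were lower at day 7, against 17.2% higher and 17.3% lower of all genes, with a median log2 difference of −0.56. The 5 were Ccn4 (−2.55), Tnfrsf11b (−2.46), Cd44 (−2.12), Ccnd1 (−1.75) and Tcf7 (−1.63). Axin2, the most widely used readout of β-catenin activity, was low, with 0.250 and 0.820 CPM in shControl, 0.348 and 0.440 CPM in shNFIB, and 0.298 and 0.615 CPM in shMLL1 cells, and was not called (log2 difference 1.03, SE 0.53, adjusted p = 0.168). Ccnd1, which codes for cyclin D1 and also serves the cell cycle, had 358 and 154 CPM, 752 and 181 CPM, and 321 and 82.0 CPM in the same order. The 6 proliferation markers fell at the same time, and their part in the fall of Ccnd1 was not tested.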

How the data were processed

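Per the labels and the study's methods, the authors aligned reads trimmed by Trimmomatic 0.39 to GRCm38 (mm10), using HISAT2 2.2.1, kept well-mapped reads with SAMtools 1.12, removed duplicates and used htseq-count 0.11.1 for counts per gene. The deposited values are raw counts per Ensembl gene, with 0 rows that named no gene and 0 columns left unassigned. Symbols, positions and exon lengths came from GENCODE M21, where 55141 of the 55401 genes had an entry and Tle5 was found under its older symbol Aes.

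Pairs of libraries were compared as fold changes of TMM-scaled CPM with a prior count of 0.125 and exact Clopper-Pearson 95% intervals, which cover counting error only. The fits over 6 libraries used edgeR 4.0.16 (R 4.3.3, quasi-likelihood test, Benjamini-Hochberg adjustment), with filterByExpr, an FDR of 5% and a common biological coefficient of variation of 0.277. The line pairs the days because both libraries come from the same hairpin line, and deviations of the days correlated at 0.427 in shControl, 0.432 in shNFIB and 0.273 in shMLL1. Steps were tested on simulated data. DESeq2 1.42.0, other scalings, filters, prior counts and left-out libraries were tried as alternatives.

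Members, gene lists and settings were chosen with earlier results of these data known. All members are accounted for. Values by library are given for those called or past 2-fold and for the hairpin targets, Axin2 and Ccnd1. Per list, the 3 called genes with the largest change in each direction are named, most by their log2 change alone, beside Ccnd1 and the member Tcf7. Intervals and figures used Python 3.11.15, scipy 1.17.1 and matplotlib 3.10.9. The authors' ChIP-seq was not used here.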

Additional observations from a re-analysis of the deposited data

Results flagged for a closer look

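Fzd7 and Lgr4 ran in opposite directions between days in different lines. Fzd7 was lower at day 7 in shControl (log2 difference −0.39, counting interval −0.47 to −0.31) and shNFIB (−0.42, −0.48 to −0.36) and higher in shMLL1 (0.41, 0.32 to 0.50). The shMLL1 day response exceeded that of shControl by 0.80 and that of shNFIB by 0.83 on the log2 scale. Lgr4 was lower at day 7 in shControl (−0.57, −0.64 to −0.49) and shNFIB (−0.98, −1.05 to −0.91) and higher in shMLL1 (0.30, 0.20 to 0.41), so the shMLL1 response exceeded the others by 0.87 and 1.28. With 1 library of each line at each day, the difference was not tested. At day 0 both genes had a lower level in the shMLL1 line than in the control line, with log2 differences of −0.63 and −1.32. The shMLL1 library of day 7 had the fewest counts, 21608680.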

How the results depend on the processing

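The day comparison called 9 of 28 members (34.5% of all genes tested, both directions together, as for each share here). It called 4 without the replicate block by line (24.8% of all genes), 10 with library size alone (33.3%), 13 of 40 with all genes that had a count (21.6%), 13 with DESeq2 (40.3%) and 6 with a 2-fold minimum (24.8%). Leaving out a line gave between 4 (without shControl, 14.8%) and 10 calls (without shMLL1, 31.9%). Wnt10b, Fzd1 and Fzd8 kept their call in all 7 refits, Fzd4 lost it without shControl, Rspo3 without shControl or the block, and Fzd2, Ryk, Tcf7 and Tcf7l2 in 3 or 4 refits. For Tcf7 and Tcf7l2 this included the fits without shControl and without shMLL1, and for Fzd2 and Ryk those without shControl and without shNFIB. Of members not called, Wnt5a, Ror1 and Rspo2 were called in 4 of the 7 refits (library size alone, all genes with a count, DESeq2, and without shMLL1 for Wnt5a and Rspo2 or without shControl for Ror1), Lrp4 in 2, and Wnt2b and Lgr4 in 1. In shNFIB against shControl, 0 calls (0.254% of all genes) became 7 of 40 with all genes that had a count (2.37%), 6 with DESeq2 (3.66%) and 7 in a fit of the 4 libraries compared (3.77%). Leaving out 1 library gave 0 to 6, the latter without shMLL1 at day 0 (3.95%) or at day 7 (3.49%). In shMLL1, 0 calls (0.0318%) became 5 of 40 (1.81%), 4 (2.64%) and 2 (176 of 15741 genes) in the same settings, and leaving out 1 library gave 0 to 6, the latter without shMLL1 at day 7 (2.55%). No called or past 2-fold member reversed its direction. In pairs, most members past 2-fold, between days and between lines, did not pass an exact test at an assumed biological variation of 0.4. At 0.2 it also left fewer members in shMLL1 against shControl at day 7 than were past 2-fold. The share of all genes at these settings is not given here, so members and other genes are not compared. The causes were not tested. Library size alone in place of TMM factors moved all log2 differences by 0.21 in shMLL1 between days and by at most 0.11 in other pairs. Of the recomputed counts of members, 50 stayed within 1.5 times the main count, 12 were above and 10 below. Of the recomputed values of single members, 1455 kept their side of the threshold or stayed within their counting interval, 70 came to pass the threshold, 18 no longer passed it and 69 left their counting interval. Of the levels per kb recomputed with the longest transcript, 13 stayed within their counting interval and 14 left it. The order of Tcf7l1 and Tcf7l2 and of Tcf7 and Lef1 turned in shControl at day 7, and that of Rspo2 and Fzd1 in shControl at day 0 (51.1 against 43.3 CPM per kb). Among other turns, Rspo2 came to lie above Rspo3 at day 0 in shControl (51.1 against 39.6) and shNFIB (33.5 against 23.2). It also came to lie above Fzd2 in every day 0 library.

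Limits: the 6 conditions had no second culture, so counting intervals and the fits over lines do not measure the spread between cultures of 1 condition. The 13 members under 1 CPM rest on at most 25 counts a library, and differences there were mostly not detectable at this depth. Strand settings and the annotation release are not given in the sources used here, so genes that overlap others on the opposite strand (Wnt5a, Wnt7b, Wnt11, Fzd5, Fzd6, Rspo3, Tcf7l1, Lef1, Ctnnb1 and Kmt2a) are uncertain to that extent.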
